A study of Mus musculus with 16 samples.

Results

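The genes described here are the ligands and receptors of axon guidance, measured by bulk RNA sequencing in 16 transplanted mouse glioblastomas. They were chosen by symbol: semaphorins of classes 3 to 7, plexins, neuropilins, ephrins, Eph receptors, Slits, Robos and netrins. The symbol rule matched 66 of the 26466 genes in the table of all libraries, of which 64 are protein-coding and 2, Plxna4os1 and Plxna4os2, are antisense transcripts of the plexin A4 locus. The symbol rule itself used no measured value. The tumours are of 2 kinds, called Type 1 and Type 2 in the labels, and in each some tumours were depleted of the macrophages and microglia that reside in a tumour (TAM). The groups held 4 Type 2 TAM depleted, 4 Type 2 Control, 3 Type 1 TAM depleted and 5 Type 1 Control tumours, and all 16 are labelled as transplanted. The means of depletion, the genotype and cell of origin of each tumour kind, the host strain, sex and age, and the time of collection were not stated in the labels. Each library is listed as a separate tumour, but nothing ties a tumour to an animal or a culture, so the p-values below stand for the spread among these libraries. In the main fit that is 1 spread per gene, shared by all 4 groups, including those that a comparison does not name.

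Guidance molecules steer growing axons and migrating cells by attraction and repulsion. Class 3 semaphorins are secreted and act through neuropilins paired with plexins, whereas classes 4 to 6 cross the membrane and class 7 is held by a lipid anchor. Ephrins are bound to the membrane and signal to Eph receptor kinases on a neighbouring cell, A-type ephrins being lipid-anchored and B-type ephrins membrane-spanning. Slits repel through Robo receptors, and netrins act through Dcc, neogenin and the Unc5 receptors. In the brain these families are used by neurons, glia and blood vessels, and many of them are also expressed in gliomas.

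Values are normalized counts, that is, reads per gene divided by the size factor that the authors gave each library. Depth is given as reads counted in the 26466 genes of the table of all libraries. It was 6.72 to 18.3 M reads in Type 2 TAM depleted and 4.21 to 14.7 M in Type 2 Control libraries. In Type 1 TAM depleted libraries it was 14.3 to 15.95 M and in Type 1 Control libraries 5.83 to 7.63 M. The libraries fell into 2 sets by their reads in 997 olfactory and vomeronasal receptor genes, which a brain tumour is not known to use. Reads in these genes numbered 2717 to 8650 per M in 9 libraries (the high-background set) and 97.0 to 811 per M in 7 libraries (the low-background set). Each Type 2 group had 2 libraries of each set, but all 3 Type 1 TAM depleted libraries were low and all 5 Type 1 Control libraries were high, so background and depletion cannot be told apart in Type 1. All 5 neural stem markers (Nes, Sox2, Vim, Prom1 and Fabp7), which glioblastoma cells share, had reads in every library. Their summed normalized count was 2252 to 16450. Of all 26466 genes 90.5% to 99.98% had a read in each library, so having reads does not by itself mark a cell type.

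All 66 genes had reads in all 16 libraries, the lowest value being 3 reads, and all 66 passed the filter on low values. This does not set them apart, since 26463 of the 26466 genes passed it and 90.5% to 99.98% had a read in each library. Levels between genes are compared per kb of annotated exon. Averaged over all libraries they ran from 173.5 normalized counts per kb for Plxnb2, a plexin of the B class, to 8.30 per kb for the netrin Ntn5. Sema7a stood at 125 per kb, Plxna3 at 112 per kb, and Sema3d at 101.5 per kb. Plxnb2 ranked first in both Type 1 groups (207 per kb in Type 1 TAM depleted and 134 per kb in Type 1 Control). Sema3d ranked first in Type 2 Control at 322 per kb and 54th in Type 1 Control at 14.6 per kb. Without Type 2 Control 3, a choice made after seeing the data, Sema3d was second at 223 per kb behind Plxnb2 at 236 per kb. In Type 2 TAM depleted tumours Sema7a ranked first at 206 per kb, and without Type 2 TAM depleted 2 it was at 121 per kb, rank 3, with Plxnb2 first at 133 per kb. Single genes varied over the 16 libraries by as little as 2.67-fold (Efnb1) and by as much as 222-fold (Epha6), with Sema3d varying 114-fold. In 31 of the 66 genes (47%) the highest of the 16 libraries was Type 2 TAM depleted 2, against 16.6% of all genes tested.

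**Figure D1:**
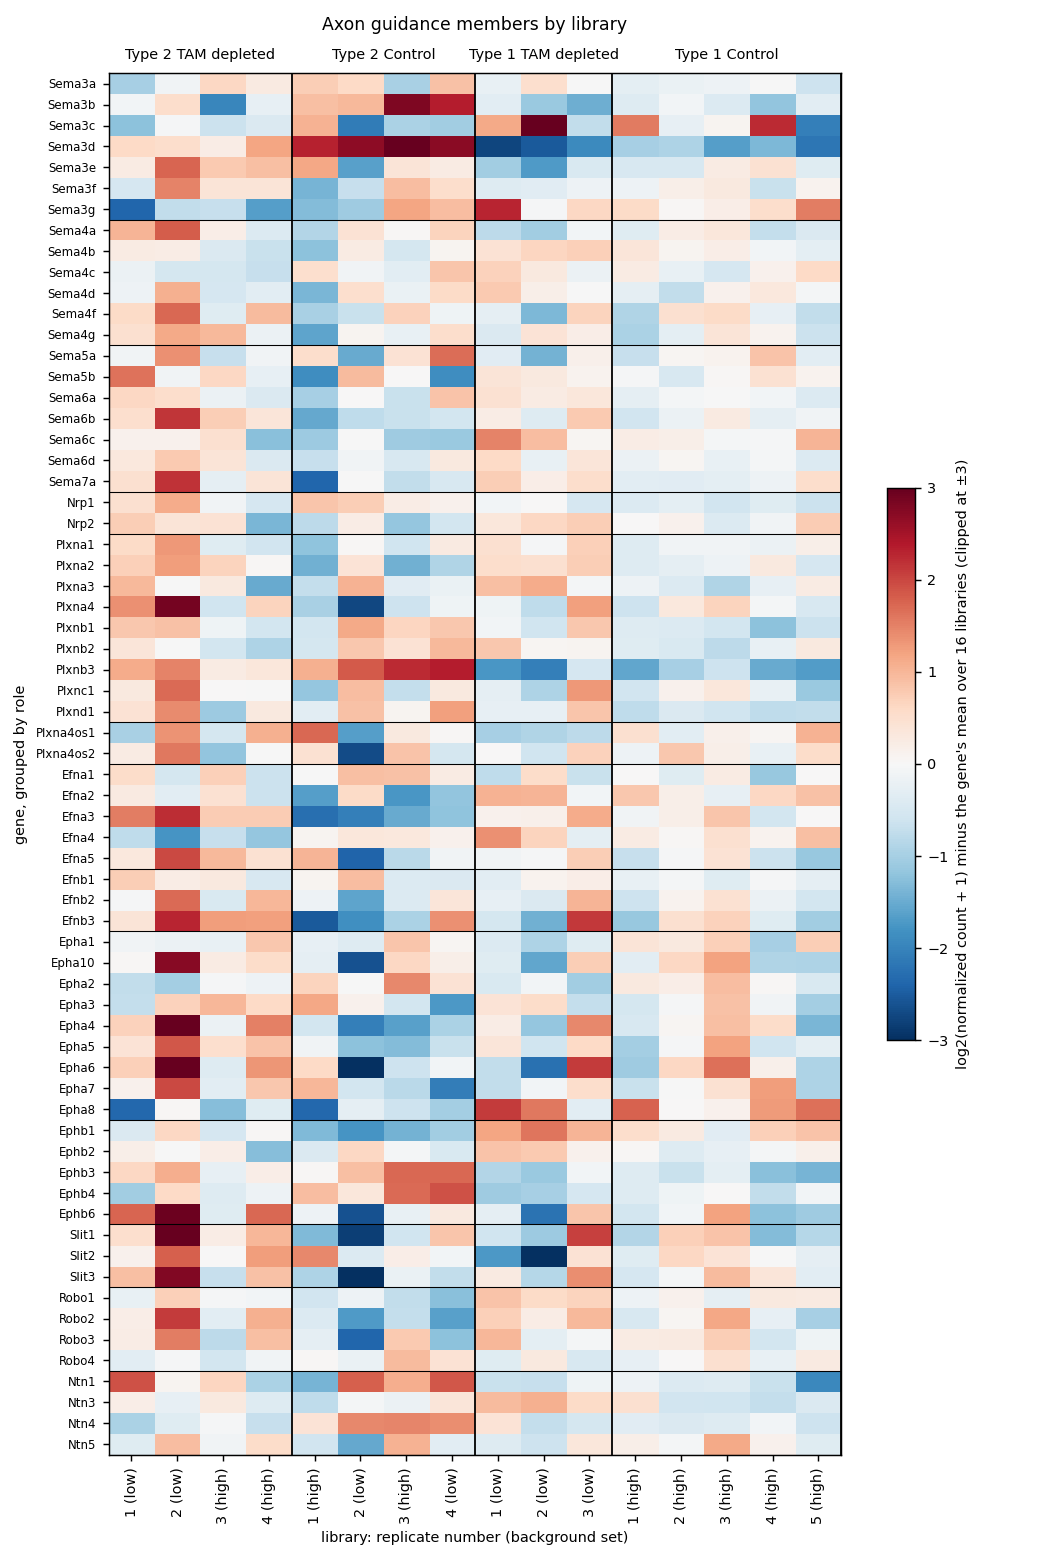
Level of each of the 66 genes (rows, grouped by role) in each of the 16 libraries (columns, with the background set in brackets), as log2(normalized count + 1) minus the gene's mean over the 16 libraries, from blue (below the mean) to red (above it). Sema3d and Plxnb3 are red across the Type 2 libraries, most of all in Type 2 Control, and the column of Type 2 TAM depleted 2 holds the highest value of 31 genes.

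For 56 of the 66 genes, 72 promoters were found in RefSeq (GRCm38.p6), each running from 250 bases before a transcript start to 50 bases after it. These 300-base windows held a median of 18 CpG dinucleotides, with a range of 2 to 56, against a median of 7 over all 32851 promoters. The letters GGGCGG (the GC box), on either strand, were in 51 of the 72 windows (70.8%) and in 35.7% of all promoters. CAGCTG (an E box) was in 16.7% of the 72 and 16.3% of all, ACAAAG (a SOX core) in 13.9% and 18.7%, ACAATG (a variant of it) in 9.72% and 12.6%, and TATAAA (the TATA box) in 2.78% and 13.6%. The promoters below belong to the 5 genes that separated Type 2 Control from Type 1 Control tumours in every fit that left out 1 library. Of the 5, Sema3d, Plxnb3 and Ntn4 were higher in Type 2 Control, and Efna3 and Ephb1 were lower. Their promoters are shown because windows of genes called in the same comparison were unlike in base composition. Each is printed 5′ to 3′ on the strand of its gene, and capitals mark matches to any of the 5 motifs on either strand.
Sema3d promoter, chr5:12382916-12383215, plus strand: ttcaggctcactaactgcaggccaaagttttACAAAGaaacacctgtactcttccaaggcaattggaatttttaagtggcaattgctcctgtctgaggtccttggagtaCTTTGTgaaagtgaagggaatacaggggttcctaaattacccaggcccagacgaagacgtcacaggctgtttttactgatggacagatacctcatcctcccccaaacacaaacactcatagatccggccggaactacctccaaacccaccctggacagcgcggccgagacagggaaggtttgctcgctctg
Plxnb3 promoter, chrX:73756853-73757152, plus strand: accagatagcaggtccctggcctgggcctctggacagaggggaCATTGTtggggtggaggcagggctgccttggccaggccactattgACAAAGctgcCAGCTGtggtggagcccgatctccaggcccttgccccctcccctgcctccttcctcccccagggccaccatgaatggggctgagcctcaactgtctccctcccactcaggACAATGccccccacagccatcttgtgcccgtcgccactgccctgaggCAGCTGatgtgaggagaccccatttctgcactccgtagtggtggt
Ntn4 promoter, chr10:93640799-93641098, plus strand: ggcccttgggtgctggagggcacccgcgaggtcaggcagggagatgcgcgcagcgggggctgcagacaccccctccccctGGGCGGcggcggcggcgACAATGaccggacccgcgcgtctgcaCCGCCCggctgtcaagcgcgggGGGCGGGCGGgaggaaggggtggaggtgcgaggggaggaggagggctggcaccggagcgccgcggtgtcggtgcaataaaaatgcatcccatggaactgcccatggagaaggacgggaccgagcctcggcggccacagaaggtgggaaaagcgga
Efna3 promoter, chr3:89322890-89323189, minus strand: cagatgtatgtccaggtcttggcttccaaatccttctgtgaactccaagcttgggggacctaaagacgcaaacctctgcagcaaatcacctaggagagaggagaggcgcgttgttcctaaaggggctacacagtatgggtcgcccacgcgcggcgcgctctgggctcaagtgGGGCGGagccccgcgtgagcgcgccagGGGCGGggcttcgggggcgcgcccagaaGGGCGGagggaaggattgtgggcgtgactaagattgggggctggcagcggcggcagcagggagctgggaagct
Ephb1 promoter, chr9:102354644-102354943, minus strand: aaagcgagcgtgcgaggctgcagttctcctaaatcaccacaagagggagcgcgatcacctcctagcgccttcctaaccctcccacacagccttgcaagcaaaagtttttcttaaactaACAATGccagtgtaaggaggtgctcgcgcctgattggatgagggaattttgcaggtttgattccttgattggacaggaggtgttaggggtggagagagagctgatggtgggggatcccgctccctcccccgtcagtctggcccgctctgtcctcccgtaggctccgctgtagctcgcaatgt
The Plxnb3 window had 4 CpG and the Sema3d window 8, whereas the Ephb1 window had 14, the Efna3 window 22 and the Ntn4 window 31. The GC box was matched in the Ntn4 and Efna3 windows and not in the Sema3d, Plxnb3 and Ephb1 windows, where the capitals are SOX cores and, in Plxnb3, also E boxes. In the Ntn4 window 2 of the 4 GC boxes overlap each other. Efna3 has another RefSeq promoter, not printed, with 34 CpG. In GENCODE vM21 (GRCm38) the genes span chr5:12383385-12588948 (Sema3d), chrX:73757090-73772514 (Plxnb3), chr10:93640681-93747207 (Ntn4), chr3:89313899-89322965 (Efna3) and chr9:101922128-102354693 (Ephb1), so starts can differ between the annotations. A match describes letters only, and no binding was measured.

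In Type 2 tumours TAM depletion went with changes in semaphorins, ephrins and their receptors, in both directions. In Type 2 TAM depleted against Type 2 Control tumours, 11 of 66 genes (16.7%) had an adjusted p under 0.05 in a limma-trend fit, against 3.61% of all 26463 genes tested. Higher were 7, the ephrin Efna3, the Eph receptors Epha4, Epha5 and Ephb1, the Slit receptor Robo2, the semaphorin Sema6b and the plexin Plxna2, against 2.37% of all genes. Lower were 4, the secreted semaphorins Sema3d and Sema3b, the netrin Ntn4 and the Eph receptor Ephb4, against 1.24% of all genes. The median log2 fold change of the 66 genes was 0.59, against -0.21 for all genes, and 45 of 66 (68.2%) were above 0, against 40.6% of all genes. Libraries of the 2 groups did not overlap for 11 of 66 genes, against 7.25% of all genes.

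Marker genes of other cell types moved in the same comparison. All 15 of 15 neuronal markers were higher and 9 of them passed the test, and their summed normalized count was 12709 to 112576 in Type 2 TAM depleted against 1560 to 11372 in Type 2 Control libraries. All 15 of 15 TAM markers were lower and 4 passed, with sums of 2198 to 4953 in Type 2 TAM depleted against 4976 to 14753 in Type 2 Control libraries. Fibroblast markers summed to 613 to 3994 in Type 2 TAM depleted against 3553 to 7754 in Type 2 Control libraries, with 7 of 7 lower and 1 called. Endothelial markers summed to 1312 to 1842 in Type 2 TAM depleted against 1855 to 2815 in Type 2 Control libraries, with 7 of 9 lower and 0 called. Astrocyte markers summed to 13456 to 63421 in Type 2 TAM depleted against 3578 to 17572 in Type 2 Control libraries, with 8 of 9 higher and 1 called. Mature oligodendrocyte markers summed to 11344 to 36094 in Type 2 TAM depleted against 3416 to 17132 in Type 2 Control libraries, with 8 of 8 higher and 0 called. T cell markers summed to 44.9 to 402 in Type 2 TAM depleted against 373 to 555 in Type 2 Control libraries, with 8 of 8 lower and 0 called. Of the oligodendrocyte precursor markers 6 of 8 were lower and 1 was called. The highest neuronal, astrocyte and mature oligodendrocyte sums of all 16 libraries (112576, 63421 and 36094) were those of Type 2 TAM depleted 2. That library was also the highest for 31 of the 66 genes (47%, against 16.6% of all genes). It did not have the highest sum of any other list. Of all these lists, Cd3d of the T cell list alone was at 0 in any library of these groups. The part of these lists in the guidance gene results was not tested, and in bulk RNA fewer cells of a type and less RNA per cell cannot be told apart.

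**Figure D2:**
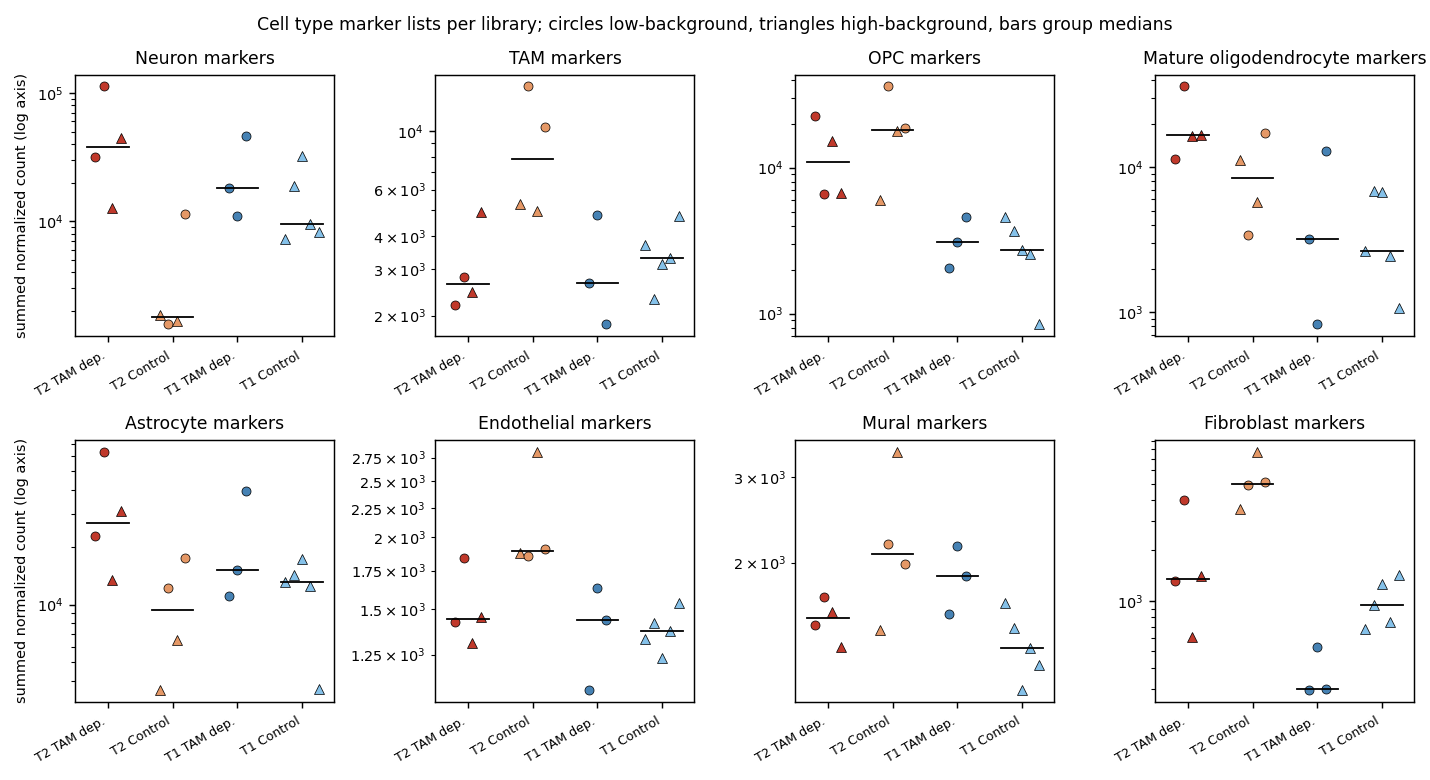
Summed normalized count (log axis) of 8 cell type marker lists in each library of the 4 groups (T2 for Type 2, T1 for Type 1), with circles for low-background and triangles for high-background libraries and bars for group medians. Neuronal sums lie between 12709 and 112576 in Type 2 TAM depleted libraries and between 1560 and 11372 in Type 2 Control libraries.

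Of the 7 secreted semaphorins of class 3, Sema3d and Sema3b fell. Sema3d, which acts through neuropilin receptors and is known for its part in vascular and cardiac patterning, had 486, 464, 378 and 734 normalized counts in Type 2 TAM depleted libraries, against 1598, 2069, 5324 and 2096 in Type 2 Control libraries. All 4 depleted libraries lay below all 4 controls, at a mean of 515 ± 153 against 2772 ± 1717 (SD, n = 4 each). The log2 fold change was -2.30 (SE 0.38, 95% interval -3.10 to -1.502, adjusted p = 0.00932), a 4.92-fold lower level. It passed in all 16 fits that each left out 1 library, with the fall between -2.51 and -1.93. Sema3b, a secreted semaphorin whose human counterpart is known as a candidate tumour suppressor, had 66.0, 100.5, 17.3 and 59.0 in Type 2 TAM depleted libraries, against 132, 139, 488 and 359 in Type 2 Control libraries. These groups did not overlap either, and the log2 fold change was -2.20 (SE 0.52, adjusted p = 0.0309). It rests on 16 to 168 reads in the depleted libraries and was called in 12 of the 16 fits. The other 5 class 3 genes did not pass, and the median of the 7 was -0.36. Summed per kb, class 3 semaphorins stood at 130 to 232 in Type 2 TAM depleted libraries against 336 to 840 in Type 2 Control libraries. Without Sema3d, left out after seeing the data, the sums overlapped, at 73.2 to 178 in Type 2 TAM depleted against 95.7 to 221 in Type 2 Control libraries.

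Of the membrane semaphorins 1 gene passed, in the other direction. Sema6b, a transmembrane ligand of plexin A4, had 418, 1307, 485 and 379 normalized counts in Type 2 TAM depleted libraries, against 100.1, 173, 184 and 198 in Type 2 Control libraries. The groups did not overlap, 1 depleted library stood far above the other three, and the log2 fold change was 1.82 (SE 0.38, adjusted p = 0.0195). Without that library, Type 2 TAM depleted 2, it was 1.42. Sema7a, the lipid-anchored semaphorin, had 474, 1519, 284 and 441 in Type 2 TAM depleted libraries, against 64.3, 336, 202 and 243 in Type 2 Control libraries. The ranges overlapped and its log2 fold change of 1.60 did not pass (adjusted p = 0.0830). Of the 7 genes of classes 5 to 7, 6 were above 0 with a median of 0.69. No class 4 gene passed, the smallest p being that of Sema4c at -0.71 (adjusted p = 0.232), and the median of the 6 was 0.40.

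Among the semaphorin receptors 1 gene passed. Plxna2, the plexin A2 receptor of class 6 semaphorins, had 2403, 3485, 2358 and 1506 normalized counts in Type 2 TAM depleted libraries, against 543, 1946, 542 and 782 in Type 2 Control libraries. The ranges overlapped, with Type 2 Control 2 above Type 2 TAM depleted 4. The log2 fold change was 1.51 (SE 0.38, adjusted p = 0.0372), and the gene was called in 7 of 16 fits. The median over the 9 plexins was -0.02, with a range from -1.08 (Plxnb3) to 2.19 (Plxna4, adjusted p = 0.0734). Plxnb2, the most abundant plexin per kb, was at -0.70 (adjusted p = 0.333). The neuropilins, the shared co-receptors of class 3 semaphorins, were at 0.61 for Nrp2 (adjusted p = 0.462) and -0.24 for Nrp1. The antisense transcripts Plxna4os1 (0.13) and Plxna4os2 (0.64) did not pass. Since the libraries do not mark strand, their reads and those of introns of Plxna4 cannot be told apart.

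Efna3 showed the largest rise of all 66 genes. It encodes ephrin A3, a lipid-anchored ligand of EphA receptors known from astrocyte contacts with dendritic spines. It had 213, 341, 125 and 125 normalized counts in Type 2 TAM depleted libraries, against 14.3, 16.7, 24.9 and 31.2 in Type 2 Control libraries. Every depleted library stood above every control, with means of 201 ± 102 against 21.8 ± 7.74 (SD, n = 4 each). The log2 fold change was 3.08 (SE 0.40, 95% interval 2.24 to 3.93, adjusted p = 0.00917), an 8.47-fold higher level, and it passed in all 16 fits that left out 1 library. The control values rest on 4, 30, 28 and 55 reads and the depleted values on 375, 571, 116 and 76 reads. Of its exon bases, 14.1% overlap the gene Gm15998, whose reads cannot be told apart from its own. Efna4, another A-type ephrin, went lower without passing, at 15.4, 7.18, 16.2 and 11.5 in Type 2 TAM depleted libraries against 28.6, 33.9, 33.8 and 29.5 in Type 2 Control libraries (log2 fold change -1.31, adjusted p = 0.0813). Efna4 and the receptor Epha2 (-1.11, adjusted p = 0.131), named after their values were seen, were the 2 genes whose groups did not overlap and that did not pass. All 3 B-type ephrins were above 0, led by Efnb3 at 2.28 (SE 0.80, adjusted p = 0.128).

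Of the 9 EphA receptors 2 rose, and 8 were above 0 with a median log2 fold change of 1.26. Epha4, a receptor for both ephrin classes that is known for guiding corticospinal axons, had 585, 2896, 322 and 1041 normalized counts in Type 2 TAM depleted libraries, against 247, 86.8, 117 and 186 in Type 2 Control libraries. The groups did not overlap, but the depleted libraries spread widely. Its log2 fold change was 2.56 (SE 0.66, adjusted p = 0.0423), and it was called in 5 of 16 fits. Epha5, a receptor of neurons known from topographic mapping, had 521, 1426, 554 and 705 in Type 2 TAM depleted libraries, against 365, 166, 158 and 243 in Type 2 Control libraries. These groups did not overlap (log2 fold change 1.73, SE 0.46, adjusted p = 0.0455, called in 6 of 16 fits). Both genes were highest in Type 2 TAM depleted 2, and without it the log2 fold changes were 1.98 for Epha4 and 1.42 for Epha5. Summed per kb, the 9 EphA receptors stood at 200.4, 861, 175 and 342 in Type 2 TAM depleted libraries, against 195, 89.8, 137 and 115 in Type 2 Control libraries.

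Of the 5 EphB receptors 1 rose and 1 fell. Ephb1, known for turning retinal axons at the optic chiasm, had 241, 496, 227 and 333 normalized counts in Type 2 TAM depleted libraries, against 129, 93.5, 120.2 and 157 in Type 2 Control libraries. The groups did not overlap, and the log2 fold change was 1.32 (SE 0.31, adjusted p = 0.0298, called in 11 of 16 fits). Ephb4, the receptor of venous endothelium for ephrin B2, had 46.6, 146, 73.3 and 86.9 in Type 2 TAM depleted libraries, against 186, 122, 315 and 369 in Type 2 Control libraries. The ranges overlapped by 1 library on each side, and the log2 fold change was -1.47 (SE 0.38, adjusted p = 0.0439, called in 3 of 16 fits). The 9 endothelial markers, for comparison, had a median log2 fold change of -0.48 with 0 called. The median of the 5 EphB genes was -0.14.

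The Slits and Robos were mostly above 0, and 1 of 7 passed. Robo2, a receptor through which Slits repel axons, had 535, 2011, 376 and 990.0 normalized counts in Type 2 TAM depleted libraries, against 350.3, 144, 288 and 150.2 in Type 2 Control libraries. The groups came close but did not overlap. The log2 fold change was 1.88 (SE 0.51, adjusted p = 0.0496), the closest of the called genes to the threshold, and it was called in 2 of 16 fits. Slit3, a secreted Slit, was at 2.26 (SE 0.71, adjusted p = 0.0874), with 284, 1032, 92.8 and 279 in Type 2 TAM depleted libraries against 78.6, 14.5, 132 and 89.5 in Type 2 Control libraries, which overlapped.

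Of the netrins, Ntn4 alone passed. Netrin 4 binds laminins and is known from vascular basement membranes. It had 68.3, 104, 131 and 82.0 normalized counts in Type 2 TAM depleted libraries, against 179, 362, 371 and 354 in Type 2 Control libraries. The highest depleted library was below the lowest control, and 3 of the 4 controls lay close together. The log2 fold change was -1.69 (SE 0.32, 95% interval -2.37 to -1.01, adjusted p = 0.0142), and it was called in 15 of 16 fits. Ntn1, the best known attractant netrin, was at -0.42 with wide ranges.

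**Figure D3:**
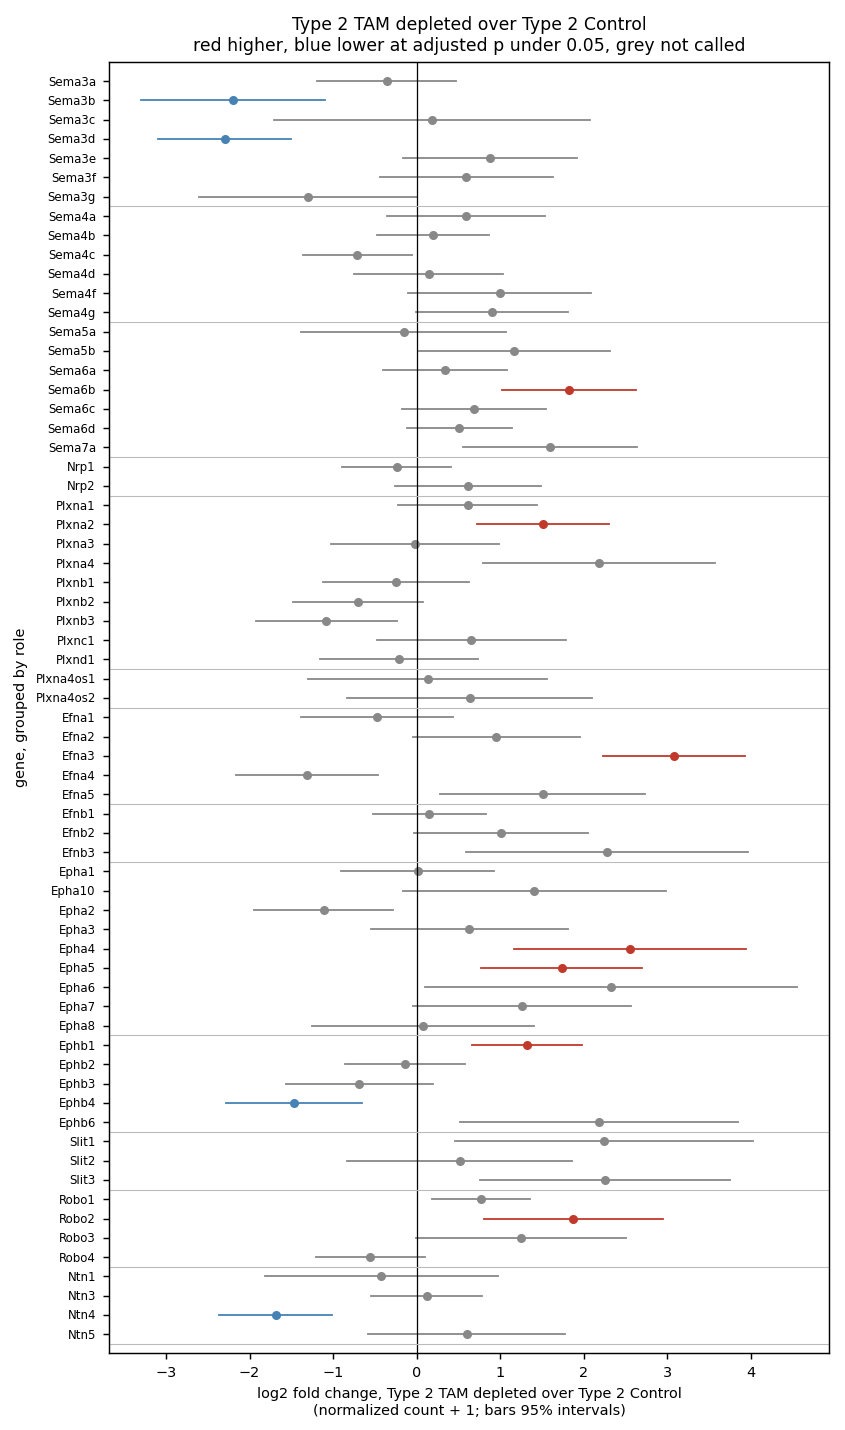
Log2 fold change of each of the 66 genes in Type 2 TAM depleted over Type 2 Control tumours, with 95% intervals, grouped by role. Red marks the 7 genes higher and blue the 4 genes lower at an adjusted p under 0.05, with Efna3 (3.08) at one end and Sema3d (-2.30) at the other.

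Other genes of the pathway, 61 in a list of receptors outside the symbol rule and of signalling partners, were read in the same fit. In Type 2 TAM depleted against Type 2 Control tumours 51 of 61 were above 0 with a median log2 fold change of 0.54, and 6 were called higher and 2 lower. Of all genes 40.6% were above 0 with a median of -0.21, and 2.37% were called higher and 1.24% lower. Chn1, a chimaerin that lowers Rac activity downstream of EphA4, was at 2.83 (SE 0.55, adjusted p = 0.0154). Ngef, an ephexin that acts downstream of Eph receptors, was at 3.03 (SE 0.70, adjusted p = 0.0283). Unc5a, a repulsive netrin receptor, was at 2.90 (SE 0.72, adjusted p = 0.0362). Also higher were Crmp1 (2.41), a cytosolic mediator of semaphorin collapse, and Pak1 (1.83), a kinase activated by Rac. Lower were Rras (-1.27), a small GTPase that plexins switch off, and Fes (-1.61), a kinase that plexin A1 recruits. Of the 6 netrin receptors on the list (Dcc, Neo1 and Unc5a to Unc5d), Unc5a was the 1 that passed. The count of 8 was 0 without Type 2 Control 3, 1 without Type 2 TAM depleted 1, 3 without Type 2 TAM depleted 2 and 4 without Type 2 Control 1. In the same order 0.378%, 1.14%, 1.08% and 2.29% of all genes were called, against 3.61% with all libraries.

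How far these calls rest on single libraries was examined by leaving out each in turn. The count of 11 fell to 2 (Efna3 and Sema3d) without Type 2 Control 3 and to 4 without Type 2 TAM depleted 1. It was 6 without Type 2 TAM depleted 2, Type 2 Control 1, Type 2 Control 4, Type 1 TAM depleted 1 or Type 1 Control 2, and 7 without Type 2 TAM depleted 4, Type 1 Control 1 or Type 1 Control 4. Calls over all genes fell to 0.378% without Type 2 Control 3 (3.03% of the 66) and to 1.14% without Type 2 TAM depleted 1 (6.06% of the 66). In the other fits named they were 1.08% to 4.55%, against 3.61% with all libraries. All 11 genes had the same direction in the high-background and in the low-background libraries taken alone. For all but Plxna2 and Ephb4 this was fixed in advance, since the groups did not overlap and any split of them keeps the direction. Efna3 was at 2.66 in the high-background and 3.50 in the low-background libraries, Sema3d at -2.47 and -2.13, Ntn4 at -1.31 and -2.07, and Robo2 at 0.94 and 2.81. In a fit to the table of Type 2 tumours alone, 0 of the 66 genes and 0 of all 25873 genes passed, with 3194 genes at an unadjusted p under 0.05. That fit took its spread from Type 2 libraries alone, whereas the main fit shared 1 spread per gene with the Type 1 libraries. The part of this sharing in the calls was not tested.

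Type 2 Control tumours differed from Type 1 Control tumours in secreted semaphorins, a B-class plexin and EphB receptors. Of 66 genes 8 passed (12.1%), against 3.09% of all genes, with 6 higher in Type 2 Control (2.28% of all genes) and 2 lower (0.816% of all genes). For all 8 the libraries of the groups did not overlap, as was so for 11 of the 66 genes and for 6.95% of all genes. The other three without overlap, Epha8, Nrp1 and Plxnd1, did not pass. The median log2 fold change of the 66 genes was -0.14, against -0.23 for all genes. The Type 2 Control libraries used here are those of the comparison above, so the calls of both comparisons are not independent, and the values of a gene in both are given only side by side. Markers of oligodendrocyte precursors were higher in Type 2 Control, 8 of 8 with 4 called, at sums of 6030 to 36018 in Type 2 Control against 843 to 4592 in Type 1 Control libraries. Neuronal markers were lower, 15 of 15 with 4 called, at 1560 to 11372 in Type 2 Control against 7284 to 32301 in Type 1 Control libraries. TAM markers were above 0 in 15 of 15 with 0 called, at 4976 to 14753 in Type 2 Control against 2315 to 4775 in Type 1 Control libraries. Fibroblast markers were above 0 in 6 of 7 with 2 called, at 3553 to 7754 in Type 2 Control against 685 to 1427 in Type 1 Control libraries. In the same order, mature oligodendrocyte markers were above 0 in 6 of 8 with 2 called (3416 to 17132 against 1070 to 6901). Endothelial markers were above 0 in 7 of 9 with 0 called (1855 to 2815 against 1231 to 1536). Neural stem markers were above 0 in 3 of 5 with 1 called (7378 to 16450 against 2252 to 6228). Mural markers were above 0 in 6 of 8, T cell in 7 of 8 and astrocyte in 3 of 9. Of these 0, 0 and 1 were called. The part of these lists in the result was not tested.

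Sema3d differed most. Its 1598, 2069, 5324 and 2096 normalized counts in Type 2 Control libraries stood against 161, 169, 101, 127 and 70.4 in Type 1 Control libraries. Even the lowest Type 2 Control library lay far above the highest Type 1 Control library, and the log2 fold change was 4.35 (SE 0.36, 95% interval 3.60 to 5.11, adjusted p = 6.56e-06), a 20.4-fold higher level. Within the high-background libraries, which include all Type 1 Control libraries, it was 4.59. Sema3b had 132, 139, 488 and 359 in Type 2 Control libraries, against 52.7, 66.0, 52.5, 30.2 and 55.9 in Type 1 Control libraries. The Type 1 Control values lay close together below it, and the log2 fold change was 2.23 (SE 0.49, adjusted p = 0.0175, called in 13 of 16 fits). Summed per kb, class 3 semaphorins stood at 336 to 840 in Type 2 Control against 126 to 302 in Type 1 Control libraries. Without Sema3d they overlapped, at 95.7 to 221 in Type 2 Control against 112 to 288 in Type 1 Control libraries.

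Plxnb3, the plexin B3 receptor, which binds Sema5a and is known from cells of the oligodendrocyte lineage, had 536, 911, 1211 and 1312 normalized counts in Type 2 Control libraries, against 85.7, 126, 166, 88.9 and 79.4 in Type 1 Control libraries. There was no overlap, with means of 992 ± 349 (SD, n = 4) against 109 ± 36.7 (SD, n = 5). The log2 fold change was 3.15 (SE 0.38, adjusted p = 0.000193), an 8.87-fold higher level, and 2.93 within the high-background libraries. It was the only plexin of the 9 to pass in the fit over all libraries, although Plxnb1 (1.15) and Plxnd1 (1.13) were above 0 with 95% intervals that left out 0. Nrp1, the neuropilin used by most class 3 semaphorins, was at 0.94 (adjusted p = 0.105) without overlap, at 456 to 740 in Type 2 Control against 265 to 336 in Type 1 Control libraries.

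Of the EphB receptors 2 were higher and 1 was lower. Ephb3, known for the formation of brain commissures, had 136, 252, 446 and 443 normalized counts in Type 2 Control libraries, against 102, 83.3, 109, 55.8 and 50.5 in Type 1 Control libraries, which gave 1.89 on the log2 scale (SE 0.39, adjusted p = 0.0119). Ephb4 had 186, 122, 315 and 369 in Type 2 Control libraries, against 73.3, 89.0, 97.5, 57.3 and 92.0 in Type 1 Control libraries, which gave 1.48 on the log2 scale (SE 0.36, adjusted p = 0.0322). In both genes every Type 2 Control library was above every Type 1 Control library. Ephb1 was lower, with 129, 93.5, 120.2 and 157 in Type 2 Control libraries, against 465, 389, 257, 529 and 586 in Type 1 Control libraries. On the log2 scale that was -1.80 (SE 0.29, adjusted p = 0.00220), called in all 16 fits. Ephb4 was called in 10 of the 16 fits and Ephb3 in 15. Within the high-background libraries alone Ephb1 and Ephb4 were called and Ephb3 was not.

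Efna3 was the other gene lower in Type 2 Control, at 14.3, 16.7, 24.9 and 31.2 normalized counts, against 67.1, 81.8, 129.98, 49.7 and 74.0 in Type 1 Control libraries. The groups did not overlap (log2 fold change -1.83, SE 0.38, adjusted p = 0.0116). Ntn4 was higher, with 179, 362, 371 and 354 in Type 2 Control libraries, against 105, 99.0, 102, 127 and 86.6 in Type 1 Control libraries. The Type 1 Control libraries varied little, and the log2 fold change was 1.55 (SE 0.30, adjusted p = 0.00805). Both genes were called in all 16 fits that left out 1 library. Within the high-background libraries alone Efna3 was called and Ntn4 was not. With the replicate number as a block neither was called, and 3 of the 66 genes passed (Ephb1, Plxnb3 and Sema3d). Genes that did not pass but had the smallest p of their family were Epha8 (-2.04, adjusted p = 0.0791), Robo1 (-0.73, adjusted p = 0.177), Sema6c (-1.08, adjusted p = 0.173) and Slit3 (-1.38, adjusted p = 0.382). Without Type 2 Control 3 the count of 8 called genes fell to 5, and calls over all genes fell from 3.09% to 1.98%.

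**Figure D4:**
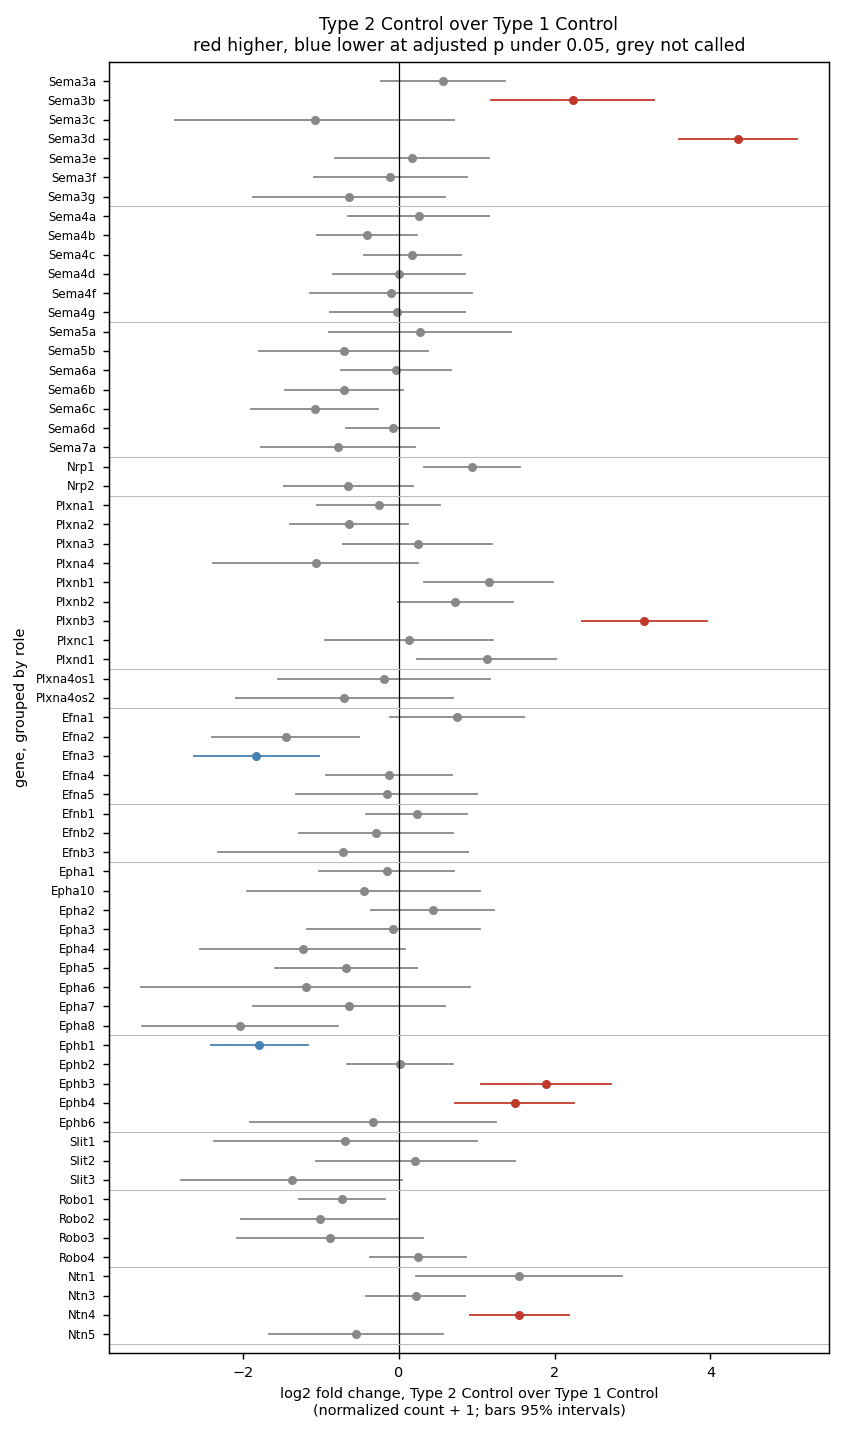
Log2 fold change of each of the 66 genes in Type 2 Control over Type 1 Control tumours, with 95% intervals, grouped by role. Red marks the 6 genes higher and blue the 2 genes lower at an adjusted p under 0.05, with Sema3d (4.35) and Plxnb3 (3.15) farthest to the right.

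Of the 61 pathway partners, 3 were called higher and 2 lower in Type 2 Control against Type 1 Control tumours, with a median log2 fold change of -0.10. Of all genes 2.28% were called higher and 0.816% lower, with a median of -0.23. Higher were Rras (1.59, SE 0.27, adjusted p = 0.00270), Dock1 (1.503), a Rac activator used by netrin receptors, and Farp2 (0.85), an exchange factor of plexin A1. Lower were Crmp1 (-2.99, SE 0.53, adjusted p = 0.00406) and Cntn2 (-2.45), an adhesion molecule of axons. Leaving out 1 library took the count of 5 to 2 without Type 1 Control 4 or Type 1 Control 5. It was 3 without Type 1 Control 1, 2 or 3, Type 1 TAM depleted 1 or 2, Type 2 TAM depleted 1, or Type 2 Control 2, 3 or 4. Of all genes 1.93% were called without Type 1 Control 4 and 2.08% without Type 1 Control 5. In the fits that gave 3 it was 1.98% to 2.95%, against 3.09% with all libraries.

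In the depleted state Sema3d and Plxnb3 separated the tumour kinds. In Type 2 TAM depleted against Type 1 TAM depleted tumours 2 of 66 genes (3.03%) passed, against 0.185% of all genes, and both were higher (0.0567% of all genes). The median log2 fold change of the 66 genes was 0.31, against 0.11 for all genes. The background sets differ here, with 2 of the 4 Type 2 TAM depleted libraries in the high-background set and all 3 Type 1 TAM depleted libraries in the low set. Sema3d had 486, 464, 378 and 734 normalized counts in Type 2 TAM depleted libraries, against 46.6, 55.7 and 84.2 in Type 1 TAM depleted libraries. Every Type 2 library was above every Type 1 library, and the log2 fold change was 3.03 (SE 0.41, adjusted p = 0.00281). It was called in all 16 fits that left out 1 library and was 2.96 (adjusted p = 0.0349) within the low-background libraries. Plxnb3 had 548, 718, 302 and 321 in Type 2 TAM depleted libraries, against 75.3, 60.5 and 178 in Type 1 TAM depleted libraries. The groups did not overlap, the log2 fold change was 2.23 (SE 0.43, adjusted p = 0.0449), and it was 2.74 within the low-background libraries without passing there (adjusted p = 0.243). Plxnb3 passed in 3 of 16 fits, those without Type 1 TAM depleted 3, Type 1 Control 3 or Type 2 Control 1. The count of called genes was 4 without Type 1 TAM depleted 3 and 1 in the fits where Plxnb3 did not pass. Of all genes 0.884% were called in the former and 0.0453% to 0.212% in the latter.

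Markers of oligodendrocyte precursors were above 0 here as well, 8 of 8 with 0 called, at sums of 6646 to 22582 in Type 2 TAM depleted against 2058 to 4574 in Type 1 TAM depleted libraries. Fibroblast markers were above 0 in 7 of 7 with 2 called, at 613 to 3994 in Type 2 TAM depleted against 295 to 534 in Type 1 TAM depleted libraries. Mature oligodendrocyte markers were above 0 in 8 of 8 with 0 called, at 11344 to 36094 in Type 2 TAM depleted against 823 to 12842 in Type 1 TAM depleted libraries. Neuronal markers were above 0 in 12 of 15 with 0 called, with a median log2 fold change of 1.79. The part of these lists in the result was not tested. Other families gave no call. Genes with the smallest p of their family were Ephb1 (-1.34, adjusted p = 0.130), Efna4 (-1.68, adjusted p = 0.145), Slit2 (2.37, adjusted p = 0.201) and Epha8 (-2.12, adjusted p = 0.242). Groups did not overlap for 10 of 66 genes (15.2%), against 9.07% of all genes. Of the 61 pathway partners 0 passed, against 0.185% of all genes.

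**Figure D5:**
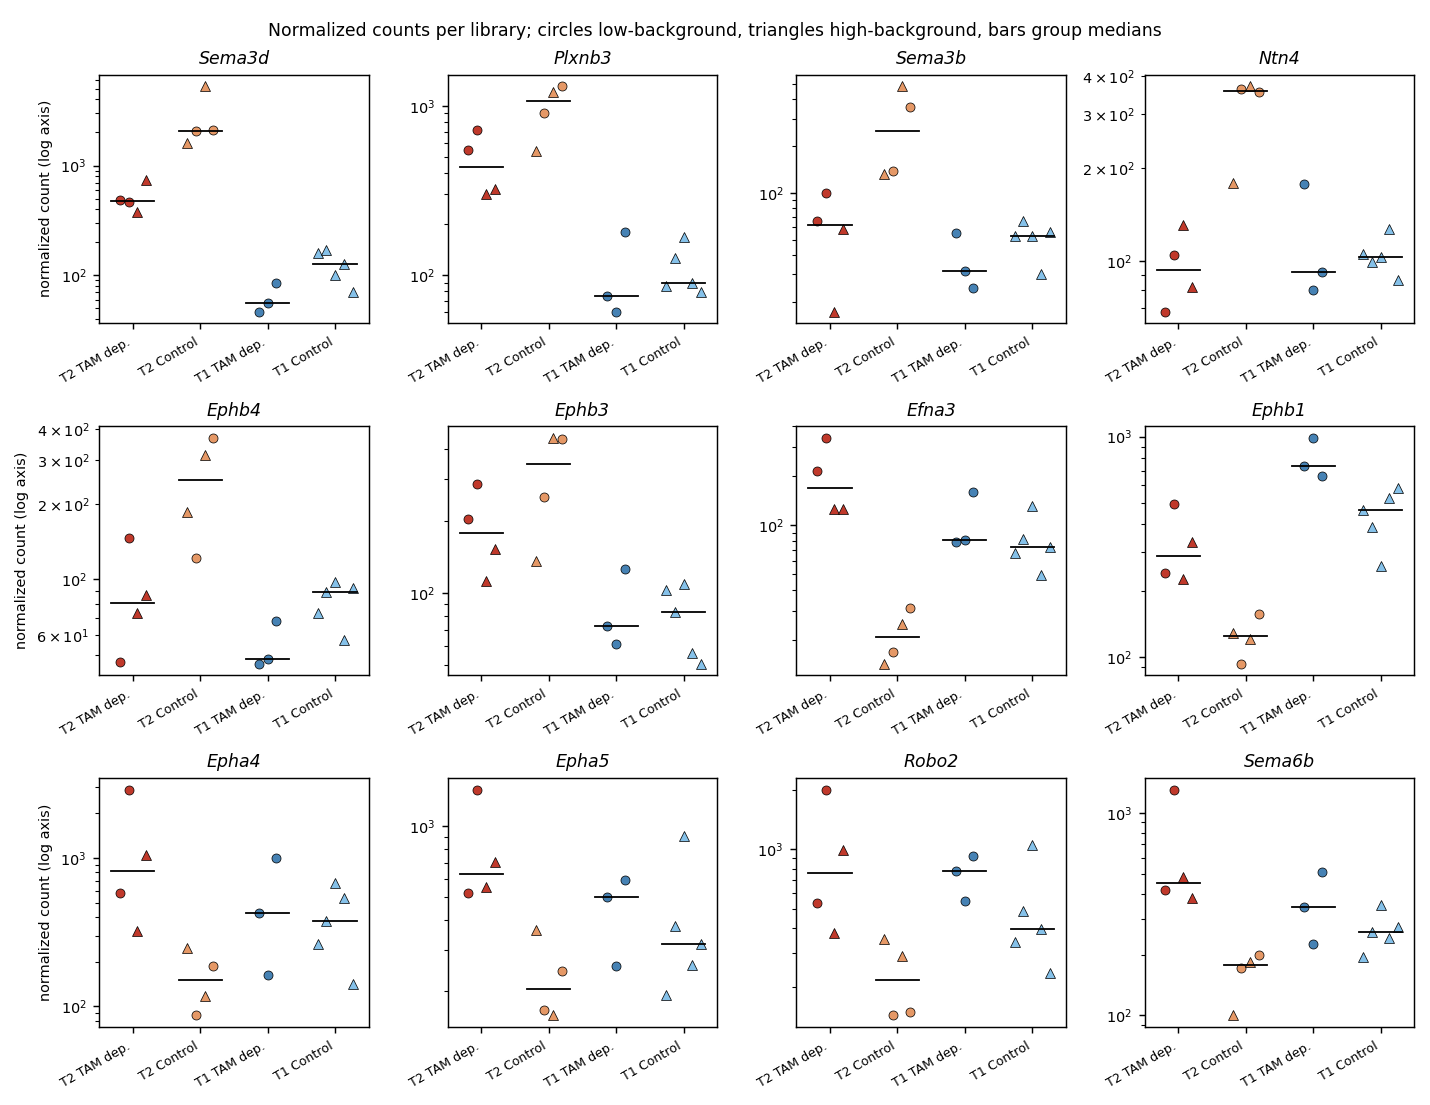
Normalized counts (log axes, 1 scale per gene) of 12 genes in each library of the 4 groups (T2 for Type 2, T1 for Type 1), with circles for low-background and triangles for high-background libraries and bars for group medians. Sema3d lies between 378 and 5324 in all Type 2 libraries and between 46.6 and 169 in all Type 1 libraries, and Efna3 is lowest in Type 2 Control (14.3 to 31.2).

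In Type 1 tumours no guidance gene passed for TAM depletion. In Type 1 TAM depleted against Type 1 Control tumours 0 of 66 genes and 0% of all 26463 genes had an adjusted p under 0.05 by limma-trend or by limma-voom. At an unadjusted p under 0.05 there were 5 of 66 (7.58%), against 30.3% of all genes, and 45 of 66 (68.2%) were above 0, against 48.5%. Libraries did not overlap for 8 of 66 (12.1%), against 39.1% of all genes. Of these 7 were higher in Type 1 TAM depleted (10.6%, against 10.5% of all genes) and 1 was lower (1.52%, against 28.6%). The median log2 fold change was 0.24 for the 66 genes and -0.06 for all genes, and 0 of the 61 pathway partners passed. The split of these libraries by background, with 183 to 499.6 receptor reads per M in Type 1 TAM depleted against 3593 to 5512 in Type 1 Control libraries, coincides with the treatment. Ntn3 had the smallest p, with 248, 267 and 191 normalized counts in Type 1 TAM depleted libraries, against 177, 84.7, 83.7, 76.9 and 93.8 in Type 1 Control libraries. The groups did not overlap (log2 fold change 1.24, SE 0.32, adjusted p = 0.103). The other four at an unadjusted p under 0.05 were Ephb1 (0.87), Robo1 (0.64), Sema3d (-0.98) and Slit2 (-1.65). Ephb1 had 739, 988 and 661 in Type 1 TAM depleted libraries, against 465, 389, 257, 529 and 586 in Type 1 Control libraries, also without overlap. In a fit to the table of Type 1 tumours alone 21 of the 66 genes passed, with 55.1% of all genes. There the spread came from Type 1 libraries alone, whereas the main fit shared it with the Type 2 libraries. TAM markers were below 0 in 13 of 15 with 0 called, at sums of 1850 to 4787 in Type 1 TAM depleted against 2315 to 4775 in Type 1 Control libraries. Fibroblast markers were below 0 in 7 of 7 with 0 called, at 295 to 534 in Type 1 TAM depleted against 685 to 1427 in Type 1 Control libraries. T cell markers were below 0 in 8 of 8 with 0 called, at 27.5 to 216 in Type 1 TAM depleted against 243 to 379 in Type 1 Control libraries. Other lists leaned upward, with oligodendrocyte precursor markers above 0 in 8 of 8, astrocyte in 8 of 9, neural stem in 4 of 5 and neuronal in 10 of 15. Mature oligodendrocyte markers were above 0 in 4 of 8, endothelial in 5 of 9 and mural in 4 of 8. None of these was called, and the part of these lists was not tested.

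The difference between the depletion responses, Type 2 minus Type 1, was tested directly. It includes the Type 1 response, in which background and depletion cannot be told apart. By limma-trend and by limma-voom 0 of 66 genes and 0% of all genes passed, and 14 of 66 (21.2%) had an unadjusted p under 0.05, against 10.1% of all genes. Efna3 had the smallest p, with a difference of 2.69 in log2 fold change (SE 0.58, 95% interval 1.47 to 3.91, adjusted p = 0.334). It had 3.08 as its response in Type 2 tumours and 0.39 in Type 1 tumours. Ntn4 differed by -1.77 (SE 0.46, adjusted p = 0.433), Sema6b by 1.43 (adjusted p = 0.472), Sema3e by 1.82 (adjusted p = 0.474) and Sema3d by -1.32 (adjusted p = 0.482). Calls in Type 2 and their lack in Type 1 are therefore no test that the kinds differ.

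The genes that passed in both comparisons sharing the Type 2 Control libraries had the following values, given side by side and not as evidence for each other. For Sema3d, Type 2 TAM depleted over Type 2 Control was -2.30 and Type 2 Control over Type 1 Control was 4.35, and for Sema3b these were -2.20 and 2.23. In the same order the values were -1.69 and 1.55 for Ntn4, -1.47 and 1.48 for Ephb4, 3.08 and -1.83 for Efna3, and 1.32 and -1.80 for Ephb1. Plxnb3, which passed in the comparisons between tumour kinds, was at -1.08 (adjusted p = 0.151) in Type 2 TAM depleted over Type 2 Control tumours.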

How the data were processed

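Bulk RNA was sequenced from 16 tumours, with TRIzol and miRNeasy extraction and SMART-Seq v4 libraries, which do not mark strand, per the labels' protocols. STAR 2.7.8a, DESeq2 (version not given in the sources used here) and the GRCm38 genome are named in the submitters' processing notes. The values deposited by the authors are log2 expression on a variance-stabilized scale. They were inverted to normalized counts, and 100% of these gave whole reads (tolerance 0.05 reads). Linear normalized values had been planned for, and the fit kept to the plan on the inverted values.

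The main test was limma-trend (limma 3.58.1, R 4.3.3) on log2(normalized count + 1) over 26463 genes with a normalized count of at least 10 in at least 3 libraries. It had 4 group means, 12 residual degrees of freedom and 2-sided p-values adjusted by Benjamini-Hochberg across the 26463 genes, and a gene was called at an adjusted p under 0.05. Fold changes are on the log2(normalized count + 1) scale, which understates low genes. The fit was also run on simulated counts, drawn with 1 spread for all libraries and without background sets. That run therefore does not bear on groups that differ in spread or background. Exon lengths and overlaps come from GENCODE vM21. Libraries held 4.21 to 18.3 M reads in the genes of the table, without molecular identifiers. Alternatives were other pseudocounts, filters and scalings, library quality weights, limma-voom on the recovered reads, blocks, background sets, each kind's own table and leaving out each library.

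Every gene past the threshold in a comparison was named, and in each family those with the smallest p or the highest level per kb could be named. Of the pathway partners, at most 6 called genes per comparison were named, by p, plus any netrin receptor called. The family to describe and the lists were chosen with earlier results of these data known, although the symbol rule uses no value.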

Additional observations from a re-analysis of the deposited data

Results flagged for a closer look

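For 13 genes, 39 groups of 4 or 5 libraries were searched for a library far from the rest of its group, and 5 were found. Chance gives about 1 in 20 where values are normally distributed. The search used normalized counts and not their log2 values, so the 5 are not read as more than chance. Sema3d in Type 2 Control 3 was 5324 normalized counts, far above 1598, 2069 and 2096 in the other three libraries. Sema6b in Type 2 TAM depleted 2 was 1307, above 379 to 485 in the rest of its group. Plxna2 in Type 2 Control 2 was 1946, above 542 to 782 in the rest. Ntn4 in Type 2 Control 1 was 178.7, below 354 to 371 in the rest. Epha5 in Type 1 Control 3 was 906.1, above 193 to 379 in the rest. The count of genes called in Type 2 TAM depleted against Type 2 Control tumours was 2 without Type 2 Control 3 and 6 without Type 2 TAM depleted 2, against 11 with all libraries. In the same order 0.378%, 1.08% and 3.61% of all genes were called.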

How the results depend on the processing

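No called gene changed direction in any setting run. For genes whose groups did not overlap, the fits that left out libraries could not have changed it. Of 216 values for the 8 genes called in Type 2 Control against Type 1 Control, 198 still passed, as did 38 of 54 for Type 2 TAM depleted against Type 1 TAM depleted and 204 of 319 for Type 2 TAM depleted against Type 2 Control. Leaving out 1 library in turn gave 2 to 11 genes for Type 2 TAM depleted against Type 2 Control. It gave 5 to 10 for Type 2 Control against Type 1 Control, 1 to 4 between the depleted groups, 0 for Type 1 depletion and 0 for the difference of the depletion responses. Of all genes these fits called, in the same order, 0.378% to 4.75%, 1.93% to 4.31%, 0.0453% to 0.884%, 0% to 0.00756% and 0%. The causes were not tested.

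With library quality weights the counts were 7 for Type 2 depletion, 16 for Type 1 depletion, 4 for the difference, 20 for Type 2 Control against Type 1 Control and 8 between the depleted groups. In the same order that is 10.6%, 24.2%, 6.06%, 30.3% and 12.1% of the 66 genes, against 1.65%, 51.8%, 2.83%, 24.8% and 1.62% of all genes. In the table of 1 tumour kind alone the counts were 0 for Type 2 and 21 for Type 1 depletion, with 0% and 55.1% of all genes called. Type 2 depletion gave 5 genes in high-background libraries alone (7.58%, against 2.2% of all genes). In low-background libraries alone it gave 0, as it did over all 20430 genes tested there. Type 2 Control against Type 1 Control gave 8 in high-background libraries alone (12.1%, against 4% of all genes). The depleted groups gave 1 in low-background libraries alone (1.54% of the 65 tested there, against 0.0979% of all genes). Each of these fits had fewer samples. With the background set as a block the difference gave 1 gene (Efna3), with 0.627% of all genes called. Background and depletion coincide in Type 1, so that fit took its background effect from the Type 2 libraries alone. Quantile normalization gave 1 gene between the depleted groups, with 0.117% of all genes called. It moved Robo1 in Type 1 depletion to -0.0019, and weights moved Efnb3 in Type 2 Control against Type 1 Control to 0.58.

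Upper quartile scaling moved the median of all genes to -0.41 in Type 2 depletion (main -0.21) and to -0.44 in Type 1 depletion (main -0.06). Calls over all genes in Type 2 depletion were 627 higher and 329 lower, against 673 and 618 with that scaling. For Type 2 Control against Type 1 Control they were 603 and 216, against 626 and 445 with that scaling and 1079 and 725 with quantile normalization. By limma-voom, all-gene calls were 1248 in Type 2 depletion, 2343 between controls (902 higher, 1441 lower), 48 between the depleted groups and 0 in the others.

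Replicate numbers did not pair the libraries. Same-numbered libraries of different groups correlated at -0.675 to 0.495 (median -0.158, 21 pairs, 7 over 0.1), and 1 of 16 matched best with its own number. With the replicate block the counts were 4 for Type 2 depletion, 3 for Type 2 Control against Type 1 Control and 1 between the depleted groups. In the same order 1.12%, 1.31% and 0.0605% of all genes were called. Depth was low for Efna3, at 4 reads in Type 2 Control 1.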
